A study of Homo sapiens with 12 samples.

Results

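Transcripts of 6 insulin-like growth factor (IGF) binding proteins, IGFBP2 to IGFBP7, and of the IGF2 receptor, IGF2R, were followed in a pair of human melanoma lines given a BRAF inhibitor. These 7 genes, of 33694 human gene identifiers listed, were selected on the measured values, because IGFBP7 separated the lines. Their levels between the lines are therefore described with no test, and the members were tested only in the drug responses. Other IGF pathway genes were tested in both kinds of comparison. A375 is an established melanoma line that carries an activating BRAF mutation, and A375-BIR is named in the labels as its counterpart resistant to BRAF inhibitors. How A375-BIR was made, and whether it is 1 clone, is not given in the sources used here. Both lines were grown in RPMI with 10% serum and received 200 nM dabrafenib, an inhibitor of the BRAF kinase, or 0.1% DMSO, its solvent, for 48 h. Each of the 4 groups was deposited with 3 biological replicates. Of the A375 DMSO libraries, 1 lists human genes and is used here. The remaining 2 list mouse identifiers and were not compared.

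IGF1 and IGF2 are secreted growth factors that signal through the IGF1 receptor and insulin receptor to PI3K and AKT. IGFBP2 to IGFBP6 are secreted proteins that bind IGFs tightly and can hold them away from the receptor or deliver them to it. IGFBP7 shares the amino-terminal domain of the family, binds IGFs weakly and is found in the extracellular matrix. IGF2R, also known as the cation-independent mannose 6-phosphate receptor, takes up IGF2 for degradation and sorts lysosomal enzymes.

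RNA was read as 3′ tags, which count transcripts near their polyadenylated end. Gene counts per library ran from 198690 to 1999840 (median 570083). Levels are CPM, counts scaled to a common total, on library totals scaled by the trimmed mean of M values (TMM). A library with 0 counts of a gene allows 1.5 to 15.1 CPM, by 3 counts of its raw total. The deposited name of the A375 DMSO library carries another stamp than the one the other 9 share. What the stamp marks is not given in the sources used here, and stamp and group cannot be told apart wherever that library enters. Mitochondrially encoded genes took 4.63% to 7.21% of counts in A375-BIR libraries and 10.7% to 15.1% in A375 libraries. Replicate 3 of A375-BIR with dabrafenib stood apart in its group, with 20.4% of its reads on genes and 7.21% mitochondrial. Summed levels of 8 melanocytic markers were 197 to 315 CPM in A375-BIR and 1442 CPM in the A375 DMSO library. In the A375 dabrafenib libraries they were 2843 to 3376 CPM. TYR was at 0 counts in A375-BIR only. MLANA had 0 counts in A375-BIR and in the A375 DMSO library, and 1 count in A375 with dabrafenib. From DMSO to dabrafenib in A375, DCT rose from 417 to a mean of 1746 CPM and SOX10 from 471 to 962. MITF, S100B, PMEL and TYR had lower means with the drug there. Endothelial, leukocyte and keratinocyte markers summed to at most 5.64 CPM in any library, and 7 fibroblast markers to 10.2 to 30.9 CPM.

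The 5′ flanks of 3 members are shown because these genes lie on opposite sides of the comparison of the lines. In both treatments IGFBP4 was higher in A375-BIR and IGFBP3 was lower. IGFBP2 was 5.61-fold higher there in dabrafenib, and in DMSO 1.29-fold with a 95% interval of 0.92 to 1.79. The RefSeq table (GRCh38.p14) held start sites for 6 of the 7 members, with IGFBP7 the exception. Capitals mark a GC box, GGGCGG on either strand, and each run is given 5′ to 3′ on the gene's own strand and holds bases before the RefSeq start site that are outside the gene's annotated exons. The IGFBP3 flank lies within an intron of a GENCODE transcript that starts farther upstream, and the IGFBP6 window is not shown because it overlaps an annotated exon. IGFBP2 is chr2:216632578-216632827 on the plus strand, IGFBP3 is chr7:45921275-45921522 on the minus strand and IGFBP4 is chr17:40443200-40443449 on the plus strand.
IGFBP2: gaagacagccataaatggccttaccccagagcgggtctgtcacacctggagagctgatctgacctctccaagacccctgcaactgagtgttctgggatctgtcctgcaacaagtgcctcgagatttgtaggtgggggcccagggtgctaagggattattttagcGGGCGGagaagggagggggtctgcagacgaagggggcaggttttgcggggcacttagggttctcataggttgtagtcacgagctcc
IGFBP3: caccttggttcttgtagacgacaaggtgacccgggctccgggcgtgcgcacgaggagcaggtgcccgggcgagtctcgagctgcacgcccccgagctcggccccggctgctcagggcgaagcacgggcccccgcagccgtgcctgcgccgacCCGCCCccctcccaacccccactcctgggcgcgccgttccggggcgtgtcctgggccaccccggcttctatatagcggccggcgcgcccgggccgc
IGFBP4: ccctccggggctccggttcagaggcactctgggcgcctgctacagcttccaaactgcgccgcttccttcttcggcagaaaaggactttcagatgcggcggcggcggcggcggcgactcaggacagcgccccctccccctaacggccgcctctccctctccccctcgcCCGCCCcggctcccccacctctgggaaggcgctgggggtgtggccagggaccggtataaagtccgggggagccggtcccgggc
The IGFBP2 flank had a GC content of 56.8%, that of IGFBP3 75.8% and that of IGFBP4 71.6%. Each printed flank, which is shorter than the windows of the table, held 1 GC box. Of all 35116 promoter windows of 300 bases in the table, 45.0% held a GC box. Over these 300-base windows IGFBP3 and IGFBP4 held 2 GC boxes each, IGFBP6 held 1, IGF2R held 6 and IGFBP5 held none. The windows of IGFBP2 held 1, 1 and 0, and the flank of the first is printed. An AP-1 site, TGANTCA on either strand, was in no window of a member and in 7.71% of all windows. The TEAD core GGAATG was in the windows of IGFBP5 and IGFBP6, and in 14% of all windows. These are matches of letters and were not tested as sites.

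IGFBP7 was detected in every A375-BIR library and in no A375 library. The gene lies on chr4:57030773-57110385, minus strand (GENCODE 29, GRCh38, as for all positions of genes). A375-BIR with DMSO had 114, 103 and 125 CPM in replicates 1 to 3, and A375-BIR with dabrafenib had 181, 219 and 101 CPM. The A375 DMSO library and the 3 A375 dabrafenib libraries had 0 counts, against summed counts of 311 and 354 in the A375-BIR groups. No A375 library came near any A375-BIR library. Against 3 counts over the A375 group, the level in A375-BIR was at least 59.8-fold higher in DMSO and at least 65.2-fold higher in dabrafenib. The limit in dabrafenib was 36.7-fold without A375 dabrafenib replicate 1 and 38.9-fold without replicate 2. Counts of 0 leave room for up to 1.88 CPM in the A375 DMSO library and 2.70 CPM over the 3 A375 dabrafenib libraries, on scaled totals. In bulk RNA, fewer cells that make a transcript and less of it per cell cannot be told apart.

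The IGFBP7 reads are not split by strand in the sources used here, and the gene overlaps POLR2B, a subunit gene of RNA polymerase II on the opposite strand. POLR2B had 65 counts in the A375 DMSO library and 70, 75 and 24 in A375 with dabrafenib, where IGFBP7 had 0. The antisense gene IGFBP7-AS1 had 3 counts in all 10 libraries.

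**Figure D1:**
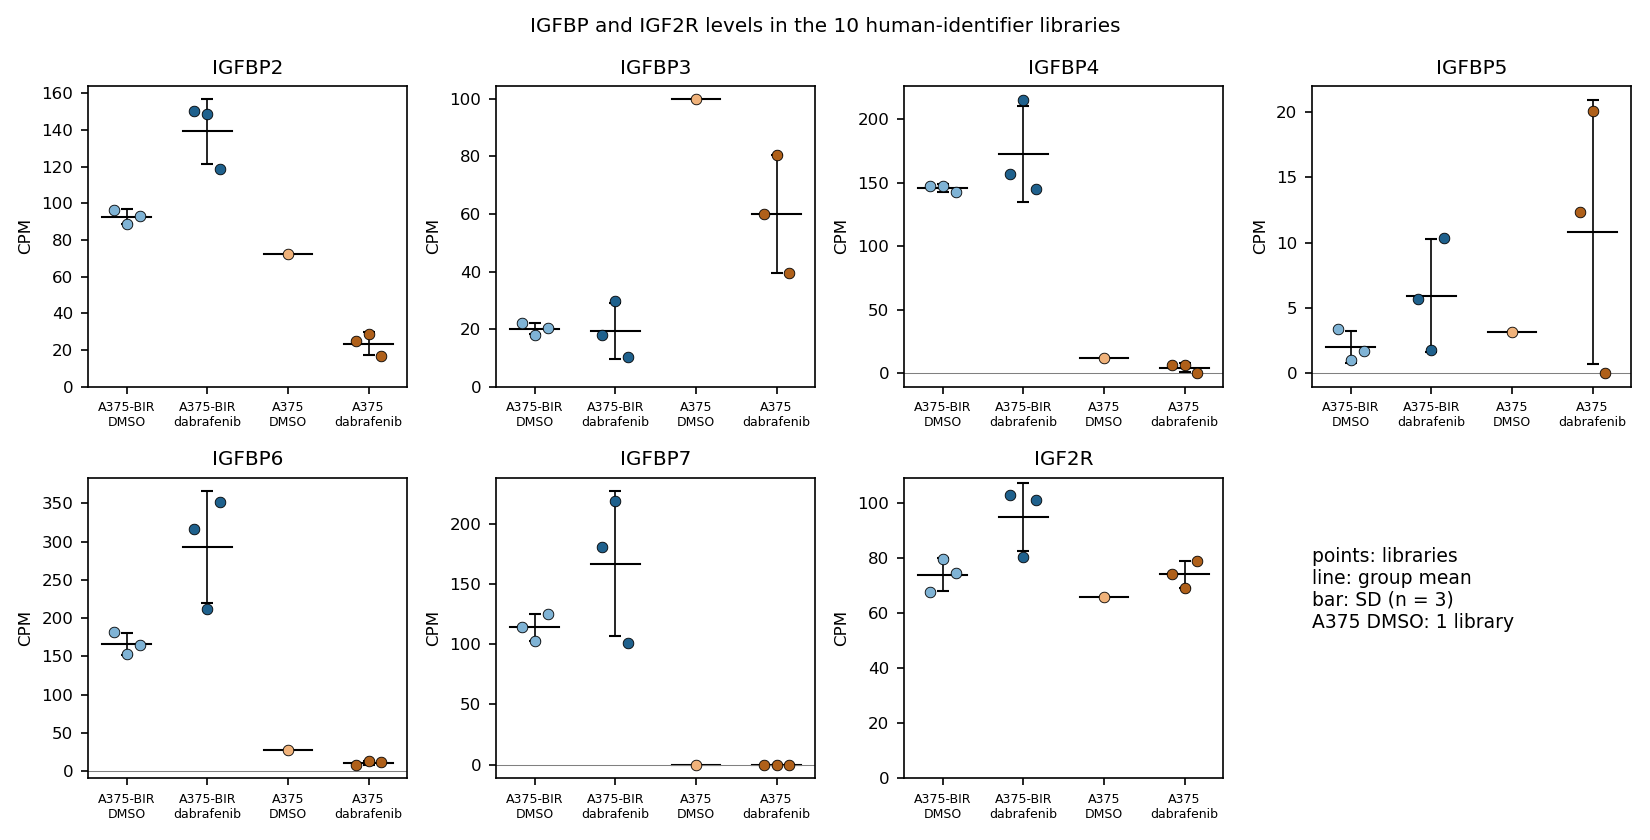
Levels of the 7 genes in CPM (y axis, linear, scaled per gene) in each library, by line and treatment; points are libraries, horizontal lines are group means and bars are SDs (n = 3; A375 DMSO is 1 library). IGFBP7 is at 0 in all 4 A375 libraries, IGFBP4 and IGFBP6 are higher in every A375-BIR library, and IGFBP3 is higher in every A375 library.

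IGFBP4 binds both IGFs and is cleaved by the protease PAPPA, and it lies on chr17:40443461-40457731, plus strand. Its levels in A375-BIR with DMSO were 147, 147 and 142 CPM, and with dabrafenib 157, 215 and 145 CPM. The A375 DMSO library had 11.9 CPM (19 counts), and A375 with dabrafenib had 6.19, 6.70 and 0 CPM (3, 3 and 0 counts). All A375-BIR libraries were above all A375 libraries. The group means ran from 172 ± 37.5 CPM (SD, n = 3) in A375-BIR with dabrafenib through 146 ± 2.95 in its DMSO group and 11.9 in the A375 DMSO library to 4.29 ± 3.73 in A375 with the drug. The first pair overlapped, and the last pair did not. The fitted difference of the lines was 12.1-fold in DMSO and 31.2-fold in dabrafenib.

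IGFBP6, which prefers IGF2 over IGF1, lies on chr12:53097436-53102345, plus strand. A375-BIR with DMSO had 182, 153 and 164 CPM, and A375-BIR with dabrafenib had 316, 212 and 352 CPM. The A375 DMSO library had 27 CPM (43 counts), and the A375 dabrafenib libraries had 8.25, 13.4 and 11.3 CPM (4, 6 and 2 counts). None of the 4 groups overlapped another, in the order A375-BIR with dabrafenib (293 ± 72.9 CPM, SD, n = 3), A375-BIR with DMSO (167 ± 14.6), the A375 DMSO library and A375 with the drug (11 ± 2.58). The fitted difference of the lines was 6.15-fold in DMSO and 26.6-fold in dabrafenib.

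IGFBP2, a binding protein that also carries an integrin-binding motif, lies on chr2:216632828-216664436, plus strand. A375-BIR had 96.6, 88.7 and 93.1 CPM with DMSO and 150.4, 148.7 and 119 CPM with dabrafenib. A375 had 72.2 CPM with DMSO (115 counts) and 24.7, 29 and 16.9 CPM with dabrafenib (12, 13 and 3 counts). The groups did not overlap. Means stood at 139 ± 17.6 CPM (SD, n = 3) in A375-BIR with dabrafenib, 92.8 ± 3.96 in its DMSO group, 72.2 in the A375 DMSO library and 23.6 ± 6.13 in A375 with the drug. The fitted difference of the lines was 1.29-fold (log2 0.36 ± 0.24, SE) in DMSO and 5.61-fold in dabrafenib.

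IGFBP3, the main carrier of IGFs in blood, lies on chr7:45912245-45921874, minus strand, and was on the other side of the comparison. A375 had 99.8 CPM with DMSO and 59.8, 80.3 and 39.5 CPM with dabrafenib. A375-BIR had 22, 18.1 and 20.3 CPM with DMSO and 18.1, 29.7 and 10.4 CPM with dabrafenib. Every A375 library was above every A375-BIR library, and both A375-BIR groups overlapped. The A375-BIR level was 4.90-fold lower in DMSO and 3.19-fold lower in dabrafenib, with means of 20.2 ± 1.95 and 19.4 ± 9.76 CPM (SD, n = 3) against 99.8 and 59.9 ± 20.4 CPM.

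IGFBP5, which binds IGFs and matrix, neighbours IGFBP2 on chr2:216672105-216695525, minus strand. It had 37 counts in all and passed the filter on low counts only through A375 with dabrafenib. Its levels there were 12.4, 20.1 and 0 CPM (6, 9 and 0 counts), against 3.14 CPM in A375 with DMSO. A375-BIR had 3.39, 1.01 and 1.69 CPM with DMSO and 5.71, 1.75 and 10.4 CPM with dabrafenib. All neighbouring groups overlapped, and no order of the means (10.8, 5.94, 3.14 and 2.03 CPM, from A375 with dabrafenib to A375-BIR with DMSO) exceeded the spread.

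IGF2R, on chr6:159969099-160113507, plus strand, stayed between 65.9 and 102.8 CPM in all 10 libraries. A375-BIR had 67.8, 79.6 and 74.5 CPM with DMSO and 102.8, 80.5 and 100.9 CPM with dabrafenib. A375 had 65.9 CPM with DMSO and 74.2, 69.2 and 79.0 CPM with dabrafenib. The means were 94.7 ± 12.4 CPM (SD, n = 3) in drug-treated A375-BIR, 74.1 ± 4.90 in drug-treated A375, 74 ± 5.94 in A375-BIR controls and 65.9 in the A375 control. The 2 middle groups overlapped, and the fitted difference of the lines was 0.16 ± 0.25 (log2, SE) in DMSO and 0.38 ± 0.22 in dabrafenib.

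Between the lines, 5 of the 7 members had a positive fitted difference and 2 a negative one in either treatment. That count includes IGFBP7, on which the members were chosen, so it is a description and is not compared with all genes. The 95% interval of the fold included 1 for IGF2R (0.80 to 1.57 in DMSO, 0.96 to 1.76 in dabrafenib). It also did for IGFBP5 (0.17 to 2.96 and 0.16 to 1.13), and for IGFBP2 in DMSO (0.92 to 1.79). Of all 10236 genes tested, 51.8% were called between the lines in DMSO and 42.7% in dabrafenib. Called means a Benjamini-Hochberg adjusted p under 0.05 in edgeR's quasi-likelihood test. With library totals in place of TMM, the differences in DMSO moved from 0.36 to 0.76 for IGFBP2, from 2.62 to 3.02 for IGFBP6 and from 0.16 to 0.56 for IGF2R (log2), as the median of all genes moved to 0.41. Both line comparisons share their libraries with the drug comparisons below. The summed melanocytic markers and the mitochondrial share given above move with the line, and their part in the members' differences was not tested.

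In A375-BIR, IGFBP6 was higher with dabrafenib than with DMSO and was the only member called. IGFBP6 rose from 167 to 293 CPM, 1.75-fold (95% interval 1.38 to 2.21; adjusted p = 0.0049, edgeR's quasi-likelihood test), with all 3 treated libraries above all 3 controls. IGFBP2, at means of 92.8 and 139 CPM, had a log2 change of 0.61 ± 0.18 (SE) and did not pass (adjusted p = 0.059), although its groups did not overlap. IGFBP7 had a change of 0.59 ± 0.20 (adjusted p = 0.115). Its dabrafenib replicate 3, at 101 CPM, lay below all 3 controls, and without that library the change was 0.81 and passed (adjusted p = 0.0034). IGF2R had a change of 0.37 ± 0.19 (adjusted p = 0.385), IGFBP4 of 0.24 ± 0.18 (0.593), IGFBP5 of 1.28 ± 0.86 (0.543) and IGFBP3 of -0.02 ± 0.34 (0.99). Thus 1 of 7 members was called, higher, beside 2.46% of all genes. The members' median change was 0.59, against 0.02 over all genes. The IGFBP6 call did not hold without the second DMSO library (0.75, adjusted p = 0.060).

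In A375, IGFBP2 and IGFBP6 were lower with dabrafenib than in the control, which carries the other stamp, in 3 libraries against 1. IGFBP2 fell by 1.52 ± 0.32 on the log2 scale, from 72.2 to 23.6 CPM (adjusted p = 0.00028). IGFBP6 fell by 1.31 ± 0.47, from 27 to 11 CPM (adjusted p = 0.026). All 3 treated libraries were below the control for both genes. The IGFBP6 call rests on 12 counts in the treated group and was lost without the first dabrafenib library (-1.07, adjusted p = 0.143). IGFBP4 had a change of -1.12 ± 0.63 (adjusted p = 0.162), IGFBP3 of -0.64 ± 0.29 (0.081) and IGF2R of 0.15 ± 0.28 (0.701). IGFBP7 had no counts in either A375 group and no fitted change. The fitted change of IGFBP5, 2.02 ± 0.90, is given with no test, because the gene entered the fit only through the group where it was high. The 2 members called, both lower, of 6 fitted (IGFBP5 among them) stand beside 38.6% of all genes, which is near the background. The mitochondrial share was 15.1% in the A375 control and 10.7% to 15.1% in the treated libraries. The MALAT1 share was 2.60% in the control and 5.08% to 8.60% in the treated libraries. The part of either share in these changes was not tested.

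The responses of the lines differed for IGFBP2 and IGFBP6, which had opposite directions in the lines. For IGFBP2 the response of A375-BIR minus that of A375 was 2.12 ± 0.37 on the log2 scale (adjusted p = 7.08e-05). For IGFBP6 it was 2.11 ± 0.50 (adjusted p = 0.0021). These were 2 of 6 members fitted, IGFBP5 among them, or 33.3% beside 22.6% of all genes, which is near the background for so few genes. Both passed in each of the 17 settings run, the one reported among them, with differences of 1.84 to 2.27 for IGFBP2 and 1.82 to 2.35 for IGFBP6. The control of the A375 response is in each case the same single library. IGFBP4 had a difference of 1.37 ± 0.66 (adjusted p = 0.131), IGFBP3 of 0.62 ± 0.45 (0.338) and IGF2R of 0.22 ± 0.33 (0.681), none of which passed.

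**Figure D2:**
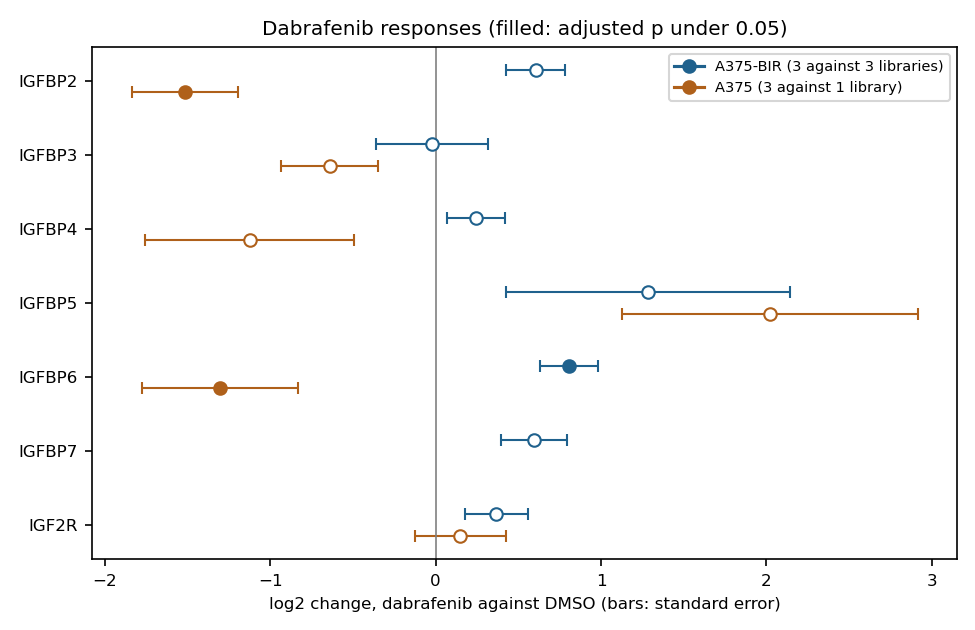
Fitted log2 change with dabrafenib (x axis) for each gene (y axis) in A375-BIR (blue, 3 against 3 libraries) and A375 (orange, 3 against 1 library); bars are standard errors and filled points have an adjusted p under 0.05; the A375 point of IGFBP5 carries no test. IGFBP6 lies at 0.81 in A375-BIR and -1.31 in A375, and IGFBP2 at 0.61 and -1.52; IGFBP7 has no A375 value because its counts are 0.

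Over the 10 libraries, the members' patterns were compared by the root mean square (RMS) difference of row-centred log2 CPM, a description in which line and treatment are shared by all genes. IGFBP4 and IGFBP6 were the closest pair (0.70), followed by IGFBP4 and IGFBP7 (0.87). IGFBP3 and IGFBP7 were the farthest apart (3.62). Of the 10229 genes that are no members, HBE1, an embryonic globin gene, was closest to IGFBP7 (0.20). HBE1 had 144, 124 and 146 CPM in A375-BIR with DMSO, 163, 168 and 119 CPM with dabrafenib, and 0 counts in all 4 A375 libraries. Then came AMIGO2, an adhesion protein (0.38), ADAMTS12, a secreted metalloprotease (0.44), TMPRSS15, the protease enteropeptidase (0.44), and STC2, stanniocalcin 2 (0.45). As with IGFBP7, replicate 3 of A375-BIR with dabrafenib was the lowest of its group for HBE1 and STC2, whereas it was the highest for ADAMTS12 and TMPRSS15.

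**Figure D3:**
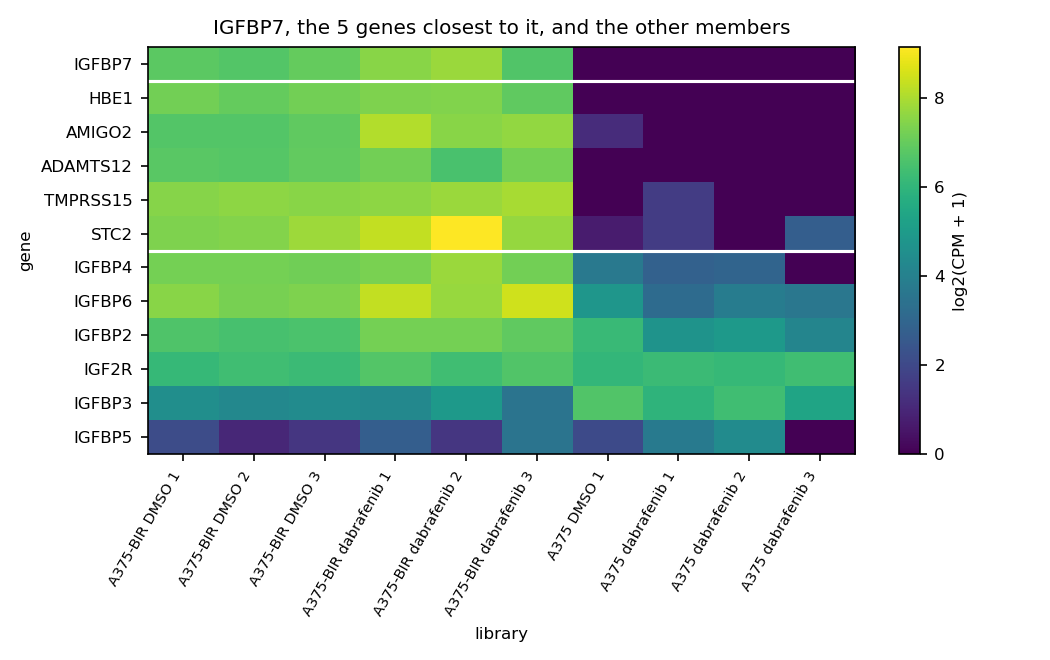
Heat map of log2(CPM + 1) in 10 libraries (x axis) for IGFBP7, the 5 genes closest to it and the other 6 genes (y axis); colour runs from 0 (dark) upward (yellow). HBE1 and ADAMTS12 are at 0 in the same 4 A375 libraries as IGFBP7, while IGF2R is near even and IGFBP3 is brighter in A375.

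Ligands of the binding proteins were hardly seen. IGF2 had 3 counts in all libraries, IGF1 had 6 counts in A375 with dabrafenib and 1 in A375-BIR with DMSO, and INS had none. IGFBP1, the remaining classical binding protein, had 1 count. Of the receptors that IGFBPs keep IGFs from, IGF1R was lower in A375-BIR than in A375 with dabrafenib (73.5 ± 14.6 against 152 ± 24.4 CPM, SD, n = 3; log2 -0.97 ± 0.21, adjusted p = 0.00036). In DMSO its difference of -0.44 ± 0.24 did not pass (adjusted p = 0.124). The insulin receptor INSR was higher in A375-BIR than in A375 with dabrafenib (log2 1.15 ± 0.42, and 0.97 to 1.61 as each library was left out). This INSR difference is given with no test, because the gene passed the filter on low counts only through A375-BIR libraries, where it was high. IRS2, an adaptor of both receptors, rose in A375 from 397 to 1879 ± 167 CPM with dabrafenib (log2 2.24 ± 0.31, adjusted p = 4.79e-07), and its change in A375-BIR was 0.07 ± 0.22 (adjusted p = 0.942). The difference between the IRS2 responses passed (-2.18 ± 0.37, adjusted p = 5.18e-05), as did that of IRS1 (-2.47 ± 0.60, adjusted p = 0.0029). Of 11 receptors, ligands and adaptors tested, none was called in the A375-BIR response, with 1 at an unadjusted p under 0.05, where 2.46% of all genes were called. In the A375 response 3 were higher and 2 lower, or 45.5% beside 38.6% of all genes. 

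Among genes listed for IGFBP proteolysis and the ternary complex, STC1 had the only tested A375-BIR response that passed with any 1 library left out. PAPPA, the protease of IGFBP4 and IGFBP5, rose from 14.7 ± 1.77 to 45.9 ± 15.8 CPM (log2 1.75 ± 0.31). Its change is given with no test, because it passed the filter on low counts only through A375-BIR with dabrafenib, where it was high. Of the stanniocalcins, which were placed in the same list as the proteases, STC2 rose from 186 to 359 CPM (0.97 ± 0.25, adjusted p = 0.042, edgeR's quasi-likelihood test). STC1 fell from 309 to 169 CPM (-0.88 ± 0.18, adjusted p = 0.0025). With MMP2, a matrix protease (1.05 ± 0.26, adjusted p = 0.021), 3 of 8 proteolysis and ternary complex genes were higher, PAPPA among them, and 1 lower. STC1 passed with any 1 library left out, and the PAPPA change stayed between 1.36 and 1.90. With DESeq2, 1 pathway gene was called, STC1, and PAPPA was given no adjusted p. STC2 was lost without any 1 of the DMSO libraries or dabrafenib replicate 1 (0.88 to 1.10, adjusted p = 0.066 to 0.205), and MMP2 without any 1 of the DMSO libraries or dabrafenib replicate 2 (0.80 to 1.12, adjusted p = 0.056 to 0.125). The last call, CCN3, a secreted relative with an IGFBP-type domain (0.91 ± 0.25, adjusted p = 0.035), was lost without any 1 of the DMSO libraries or dabrafenib replicate 1 (0.62 to 0.96, adjusted p = 0.122 to 0.320). Over the 62 pathway genes tested, 4 were higher, PAPPA among them, and 1 lower, or 8.06% beside 2.46% of all genes. Without any 1 of the DMSO libraries 1 was higher and 1 lower. Without dabrafenib replicate 1 it was 2 and 1, and without dabrafenib replicate 2 it was 3 and 5, with 558 genes called in all in place of 252. In A375 it was 13 higher, CCN5 among them, and 13 lower, or 41.9% beside 38.6%. In the difference between responses it was 8 and 6, or 22.6% beside 22.6%.

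Between the lines, PAPPA and STC2 stood on the same side as IGFBP4. STC2 had 726 counts in A375-BIR with dabrafenib and 2 in A375, a ratio of 200.7 (95% counting interval 55.4 to 1660). PAPPA had 103 counts against 3, a ratio of 19 (6.32 to 93.5), and in DMSO it was at least 7.69-fold higher in A375-BIR. HTRA1, a secreted protease with an IGFBP-type domain, was lower in A375-BIR, with log2 differences of -2.21 ± 0.36 in dabrafenib and -4.58 ± 0.34 in DMSO. These are given with no test, because HTRA1 passed the filter on low counts only through A375 libraries, where it was high. Among the IGFBP-domain relatives, CRIM1, a transmembrane protein, was higher in A375-BIR in both treatments (3.74 ± 0.24 and 4.25 ± 0.34 in log2; adjusted p = 2.03e-15 and 4.98e-13). ESM1, a secreted endothelial proteoglycan, had 0 counts in A375 and was at least 7.74-fold higher in A375-BIR in dabrafenib. CCN5 had 24 counts in A375 with dabrafenib and 0 in its DMSO library, at least 11.5-fold higher with the drug. It is given with no test, because it passed the filter on low counts only through that treated group. Pathway genes called between the lines numbered 15 higher and 18 lower in DMSO, or 53.2% beside 51.8% of all genes. In dabrafenib they were 16 and 16, or 51.6% beside 42.7%. PAPPA is counted among the higher in both treatments, and CCN5 among the lower in dabrafenib.

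Partners of IGF2R in mannose 6-phosphate sorting were tested as a list of 16. In the A375-BIR response none was called, with 3 at an unadjusted p under 0.05. In A375, 2 were higher and 6 lower, or 50% beside 38.6% of all genes, among them the lysosomal proteases CTSB (-1.60 ± 0.22, adjusted p = 7.06e-07) and CTSD (-1.02 ± 0.28, adjusted p = 0.0039). GNPTAB, which starts the tag that IGF2R recognises, was lower in A375-BIR than in A375 in dabrafenib (59.5 ± 17 against 161 ± 15 CPM, SD, n = 3; adjusted p = 3.17e-06). Of 18 PI3K and AKT genes, none was called in the A375-BIR response (4 at an unadjusted p under 0.05), and 4 were higher and 4 lower in A375, or 44.4% beside 38.6% of all genes, among them the kinase gene AKT2 (-2.08 ± 0.24, adjusted p = 1.42e-08). The 3 IGF2 mRNA binding proteins were called in no comparison.

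**Figure D4:**
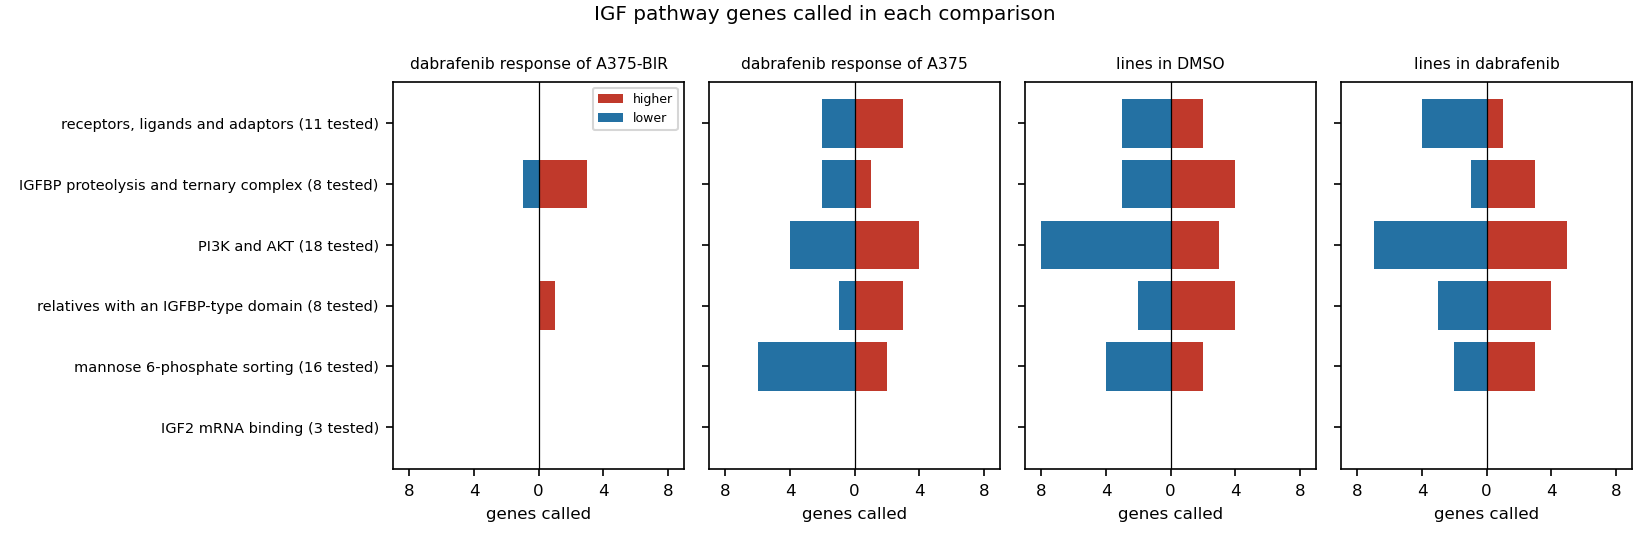
Genes called at an adjusted p under 0.05 (x axis, number of genes; higher to the right in red, lower to the left in blue) in each of 6 IGF pathway lists (y axis, number tested in brackets) for 4 comparisons. In the A375-BIR response 3 proteolysis genes are higher and 1 lower with 1 relative higher and no other call, while the A375 response and both line comparisons have calls in 5 lists each. PAPPA and CCN5 are counted here, and HTRA1 and INSR in the line comparisons, although the text gives those no test.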

How the data were processed

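The authors deposited 1 file of raw read counts per gene for each library, with no normalization. Per the labels' protocols, QuantSeq 3′ FWD libraries were made from 250 ng of total RNA and sequenced on a NovaSeq6000. Per the submitters' processing notes the build is hg38; how reads were aligned and counted, and with which annotation and strand, is not given in the sources used here. Lines for reads given to no gene were left out of totals; reads on genes were 20.4% to 31.1% of a library. Of 12 libraries, 10 list human identifiers and were used (1 of A375 with DMSO). Nothing says more of the replicates than that they are biological, so p-values measure the spread between these libraries.

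Genes were kept by filterByExpr (minimum count 10), which left 10236. TMM scaling and the robust quasi-likelihood fit were done in edgeR 4.0.16 (R 4.3.3) with a coefficient for each group (6 residual degrees of freedom, common biological coefficient of variation 0.136). Groups share 1 estimate of the spread, which stands in for that of the lone A375 DMSO library. P-values were adjusted by Benjamini-Hochberg over all genes tested. SEs are the absolute log2 change divided by the square root of F. Folds against a group at 0 counts use 3 counts over the group. Ratios over 1 to 3 counts carry exact intervals, which cover counting error only. The procedure was tested on simulated data. Alternatives were DESeq2 1.42.0, other filters and scalings, the replicate block, fewer groups and each library left out.

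The members, lists and rules were chosen with earlier results of these data known. Named are all members, key ligands, receptors and adaptors, up to 4 called genes of smallest p per list and comparison, and the 5 genes closest to IGFBP7. Promoter windows are from the RefSeq table.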

Additional observations from a re-analysis of the deposited data

Results flagged for a closer look

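The drug responses of the lines differed for 2 of the 6 genes fitted, by a test of the difference itself. Of all genes tested, 22.6% passed the same test, so the count is near the background for so few genes. For IGFBP2 the response of A375-BIR minus that of A375 was 2.1247 in log2, with the drug-treated libraries above the controls in A375-BIR and below the control in A375. For IGFBP6 it was 2.1131, with the same pattern. Both rest on 1 A375 DMSO library, which carries another stamp than the remaining libraries used.

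Replicates 2 and 3 of A375 with DMSO carry signal that entered no comparison: their files list mouse identifiers, with totals of 224221 and 652439 counts on genes, although their labels state human cells. No value for a member was taken from them.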

How the results depend on the processing

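The IGFBP2 and IGFBP6 differences between responses passed in every setting run. Leaving out each library in turn gave 0 to 3 members, 2 to 8 pathway genes and 106 to 558 genes in all called in the A375-BIR response; 1 to 3 (3 with IGFBP5, which is given no test), 18 to 22 and 3091 to 3597 in the A375 response; and 2, 12 to 21 and 1644 to 3030 in the difference. It gave 23 to 34 pathway genes and 3423 to 4417 genes in all between the lines in dabrafenib, and 27 to 32 and 4546 to 4811 in DMSO. The lone A375 DMSO library could not be left out of its comparisons. IGFBP6 in A375-BIR was lost without the second DMSO library (0.75, adjusted p = 0.060). IGFBP2 there passed without dabrafenib replicate 2 (0.58, adjusted p = 0.038) or 3 (0.69, 0.020) and with a mean count of at least 50 (0.64, 0.038).

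With a mean count of at least 50, which tests 3336 genes, the A375-BIR response had 2 members, 2 pathway genes and 137 genes called against 1, 5 and 252. That filter left 11 pathway genes and 1669 genes in the A375 response (26 and 3948 otherwise), 8 and 1133 in the difference (14 and 2313), 16 and 1764 between the lines in dabrafenib (32 and 4374) and 14 and 1895 in DMSO (33 and 5298). DESeq2 called 1 pathway gene and 106 genes in the A375-BIR response, 1 member and 2485 genes in the A375 response and 1153 genes in the difference. A fit of only the groups compared called 2 pathway genes and 125 genes in the A375-BIR response, and added IGFBP3 in A375 (-0.64, adjusted p = 0.010). The cause was not tested.

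IGFBP6 in A375 was lost with DESeq2 (-1.32, adjusted p = 0.067), with library totals alone (-1.04, 0.083), in the replicate block (-1.18, 0.051) and without the first dabrafenib library (-1.07, 0.143). IGFBP3 in A375-BIR, never called, ranged from -0.35 to 0.16 as each library was left out and was positive without DMSO replicate 1 (0.06), dabrafenib replicate 1 (0.10) or dabrafenib replicate 3 (0.16). IGF2R in the difference was -0.067 with library totals alone. Of the pathway genes, the uncalled A375-BIR responses of IRS1 and IRS2 ranged from -0.39 to 0.15 and from -0.37 to 0.32 as each library was left out, and INSR in A375 was 0.0081 with library totals alone. Library totals alone moved the median of all genes to 0.26 in the A375 response, -0.24 in the difference and 0.41 between the lines in DMSO, and the share of called genes that were higher from 46.4% to 63.3%, 56.3% to 34.3% and 48.5% to 69.1%. Deviations of same-numbered libraries correlated at -0.12 to 0.11 (9 pairs), so the numbers were not taken as pairs. With the replicate block 1 member and 239 genes were called in the A375-BIR response, 1 and 3296 in the A375 response, and 2 and 1750 in the difference. The IGFBP7 limit in dabrafenib was 36.7-fold without the first and 38.9-fold without the second A375 dabrafenib library.

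Depth limits IGFBP5 (37 counts in all) and IGFBP4 and IGFBP6 in A375 with dabrafenib (6 and 12 counts).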
